A study of Mus musculus with 6 samples.

Results

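The genes described here lie on distal mouse chromosome 16 and are orthologues of genes of human chromosome 21, whose extra copy causes Down syndrome. They were chosen by name: 53 were listed, and 49 had a row among the 15734 rows of the table, 2 of them (Dopey2 and Wrb) under an older symbol. Hlcs, Psmg1, Hmgn1 and Bace2 had no row in the table used here. Levels came from polyadenylated RNA of cranial tissue, taken above the pharyngeal arches and otic vesicles of mouse embryos at embryonic day 9.5. The mutant embryos (3 libraries) carried 2 copies of the msp3 allele of Smarcc1, the gene of the chromatin remodelling subunit BAF155, and the labels call them NTD mutants, for neural tube defect. The wild-type embryos (3 libraries) were homozygous for the normal allele. Both genotypes had the mixed background C57BL/6J and 129/SvImJ and were matched for somites, with 19 to 21 on the sample labels and 21 to 23 in the series design. The sources used here do not give sex or litter, so p-values measure the spread between these libraries. The comparison asks how transcript levels of the mutant head differ at the stage when the cranial neural tube has normally closed.

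Human chromosome 21 and the end of mouse chromosome 16 descend from the same ancestral stretch, which is why mice with an additional copy of this stretch are used as models of Down syndrome. The genes on it have no common function. They include the amyloid precursor App, the superoxide dismutase Sod1, the kinase gene Dyrk1a, the calcineurin inhibitor Rcan1, a cluster of interferon and cytokine receptor subunits (Ifnar1, Ifnar2, Il10rb and Ifngr2), and housekeeping genes such as Cct8 of the cytosolic chaperonin and Gart of purine synthesis. BAF155 is a core subunit of the BAF complex, which moves nucleosomes and so opens or closes DNA to transcription factors. The labels name no extra copy of any gene in these embryos.

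Each library held between 46170743 and 82067578 reads in rows of the table, and values are normalized read counts, which are reads divided by 1 factor per library. The row named Smarcc1 had 35869.6, 52563 and 35022 normalized reads in mutants 1, 2 and 3, against 42915, 62563 and 50066 in wild types 1, 2 and 3, and the genotypes overlapped. Whether that row holds the reads of Smarcc1 was not established, so it does not check the labels. Of the neural genes on chromosome 16, the progenitor gene Hes1 averaged 4148 ± 842 and the growth-cone gene Gap43 6186 ± 773 normalized reads (SD, n = 6). No listed marker of any cell type was at 0 in any library, but the surface ectoderm marker Ripk4 was near the floor. Ripk4 averaged 3.14 ± 1.52 normalized reads (SD, n = 6) and was not tested. Summed endothelial markers (Cldn5, Erg and Runx1, 3 of 3 with a row) ran from 1642 to 2091 in mutants and from 2468 to 2783 in wild type, without overlap. Cldn5 carried that sum, with 1473 ± 255 in mutants and 2297 ± 196 in wild type (SD, n = 3 each), while Erg overlapped between genotypes and Runx1 had 326 ± 86.9 in mutants and 239 ± 34 in wild type (SD, n = 3 each). Neuron markers (5 of 5 with a row) summed to between 10169 and 11629.9 in mutants and between 8622 and 9962 in wild type, also without overlap. Gap43, with 6826 ± 309 in mutants and 5546 ± 409 in wild type (SD, n = 3 each), and Sst, with 971 ± 294 in mutants and 171 ± 125 in wild type (SD, n = 3 each), carried the neuron sum, and Robo2 had 2930.3 ± 342 in mutants and 3121 ± 289 in wild type (SD, n = 3 each), with overlap. The summed levels of progenitor, surface ectoderm and mesenchyme markers overlapped between genotypes. The 1 pharyngeal arch marker, Tbx1, had 1772 ± 285 in mutants and 2570 ± 466 in wild type (SD, n = 3 each). Its log2 difference was -0.53 (limma, adjusted p = 0.396), and it overlapped narrowly, with mutant 3 at 2074 and wild type 2 at 2049. No marker tested passed the adjusted threshold of the test described below. The limma adjusted p was 0.318 for Cldn5, 0.331 for Gap43 and 0.331 for Sst. Genotypes also did not overlap in 19.1% of all rows tested, so no difference in cell types is read from these sums. The part of these cell types in the values below was not tested, and in bulk tissue fewer cells of a type and less RNA per cell cannot be told apart.

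At the top and the bottom of the order of levels, the rows proximal to Hlcs went with what their genes are known for, and several rows distal to Hlcs did not. Exon length here is that of the merged exons of all GENCODE M21 transcripts of a gene, and can exceed the length of its mRNA. Per kilobase of exon, Cct8 stood first of the 49 with 25562 normalized reads per kb. Gart and Sod1 followed among the 40 rows proximal to Hlcs with 6327 and 6040.1. At the low end of these 40 rows came Cldn14, a tight junction gene of ear and kidney, with 12.5 normalized reads per kb, the metalloproteinase gene Adamts5 with 32.8, Cyyr1 with 53.9 and the kainate receptor gene Grik1 with 54.4. Cct8, Gart and Sod1 are known to be broadly expressed, and Cldn14, Adamts5 and Grik1 are known from specialised cells. Of the 9 rows distal to Hlcs, Brwd1, a broadly expressed bromodomain gene, had 0.732 normalized reads per kb and Wrb, a receptor for membrane insertion of tail-anchored proteins, 2.66. Ttc3, which encodes a ubiquitin ligase, stood at 30.4, and the calmodulin regulator gene Pcp4 at 11.6. Sh3bgr, best known from heart and skeletal muscle, stood second of all 49 with 8731 normalized reads per kb, ahead of the row named Dyrk1a with 7464. Kcnj6, a potassium channel gene of neurons, had 1902 and the glycosyltransferase gene B3galt5 1483. Low levels of Brwd1, Wrb and Ttc3, and high levels of Sh3bgr and Kcnj6, go against what these genes are known for. The 9 rows from Pigp to Pcp4 are therefore given by row name, and their values need not be those of the named gene. The same limit holds for markers and other orthologues distal to Hlcs, such as Erg, Dscam, Ripk4 and Igsf5. This boundary was set after the levels were seen.

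**Figure D1:**
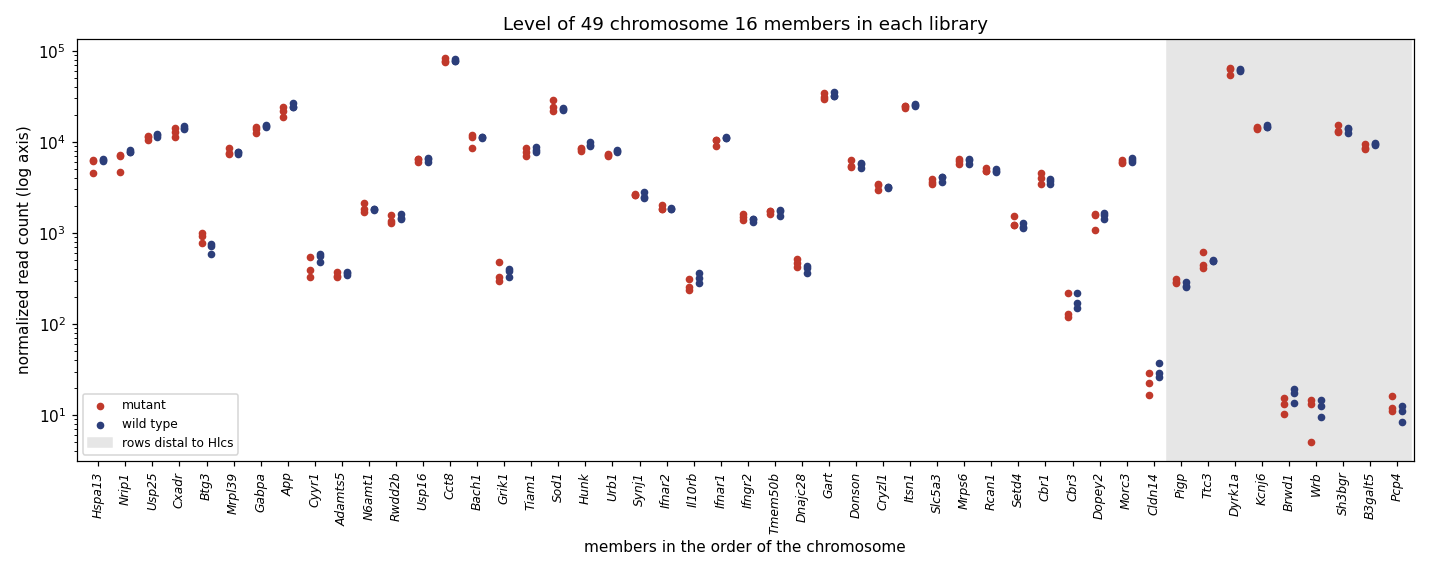
Normalized read count (log axis) of the 49 members in each library, in chromosome order, with mutants left of wild type at each gene and each point 1 library. The shaded rows distal to Hlcs run from 11.6 (Wrb) to 61589.6 (Dyrk1a) on average, and the libraries of both genotypes lie close together at nearly every gene.

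In normalized reads per row, without the correction for length, the 5 members with the most reads were Cct8, Dyrk1a, Gart, Itsn1 and Sod1. Their means over 6 libraries were 78937 ± 3212, 61589.6 ± 3836, 32544 ± 2102, 24834 ± 833 and 23979 ± 2367 normalized reads (SD, n = 6). Sod1 and the next member in this order, App at 23304 ± 2599 normalized reads (SD, n = 6), lay within each other's spread. Itsn1 lay within the spread of Sod1, but Sod1 lay just outside that of Itsn1. The 5 members with the fewest reads were Wrb, Pcp4, Brwd1, Cldn14 and Cbr3, with means of 11.6 ± 3.73, 11.9 ± 2.55, 14.8 ± 3.19, 26.6 ± 6.78 and 168 ± 43.8 normalized reads (SD, n = 6). Cbr1 and Cbr3 are neighbouring carbonyl reductase genes of similar sequence, so reads could be split between them. Together the 49 rows took 0.718%, 0.676% and 0.722% of the reads of mutants 1, 2 and 3, against 0.726%, 0.727% and 0.729% in wild types 1, 2 and 3. All 3 mutant shares lay below all 3 wild-type shares, with mutant 2 lowest and the others close together. Mutant 3 at 0.722% and wild type 1 at 0.726% were nearly equal. Rows with the most reads, Cct8 and the row named Dyrk1a, weigh most in these shares. No such share was computed for other sets of genes, so no joint decrease of the members is read from them.

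None of the 49 members passed the test between mutant and wild-type heads. With limma on log2(value + 1), 0 of 49 passed a Benjamini-Hochberg adjusted p below 0.05 over the 13329 rows tested, against 0.0225% of all rows, and the smallest adjusted p was 0.404, for Btg3. edgeR on recovered reads called 0 members at an adjusted p below 0.05, against 0.015% of all rows, and 4 at an unadjusted p below 0.05, against 10.6% of all rows. DESeq2 called 0, against 1.16% of all rows, with no adjusted p for 4 members, and had 2 at an unadjusted p below 0.05, against 10.4%. With array quality weights limma called 0 members, against 0.45% of all rows. At an unadjusted p below 0.05 by limma there were 4 of 49 members (8.16%), where 10.8% of all rows were. App, Hunk and Urb1 were lower in mutants, where 5.52% of all rows were lower at this threshold, and Btg3 was higher, where 5.31% were. A share of members near or under that of all rows is no result about the members. The count of 4 moved with single libraries, and so did the share of all rows. It was 6 without mutant 1 (11.7% of all rows), 7 without mutant 3 (16.2%), 2 without wild type 1 (6.42%), 2 without wild type 2 (7.14%) and 0 without wild type 3 (6.40%). The size of the difference of single members also rested on single libraries. In 44 of 49 members, leaving out 1 library moved the log2 difference by over 1.5 times or turned its sign, in 38 of them with mutant 2 left out, and the other 5 were B3galt5, Btg3, Hunk, Pigp and Urb1. The genotypes did not overlap in 7 of 49 members (14.3%), where 19.1% of all rows did not. The log2 difference was below 0 in 33 members and above 0 in 16, with 51.1% of all rows below 0, and its median was -0.052 in members and -0.0047 over all rows. Of the 40 members proximal to Hlcs, 4 had an unadjusted p below 0.05 by limma (10%), and in 7 (17.5%) the genotypes did not overlap. In these 40 the log2 difference was below 0 in 27 and above 0 in 13, with a median of -0.064. A 95% interval that lay wholly within a 1.5-fold change, the dose ratio of a trisomy, was found for 40 of 49 members (81.6%) and for 57.6% of all rows. The 9 with wider intervals were Nrip1, Btg3, Cyyr1, Il10rb, Cbr3, Cldn14, Brwd1, Wrb and Pcp4. Members had a median level of 4891 normalized reads and all rows of 497, and the median distance from the log2 difference to the end of its 95% interval was 0.20 in members and 0.33 over all rows.

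**Figure D2:**
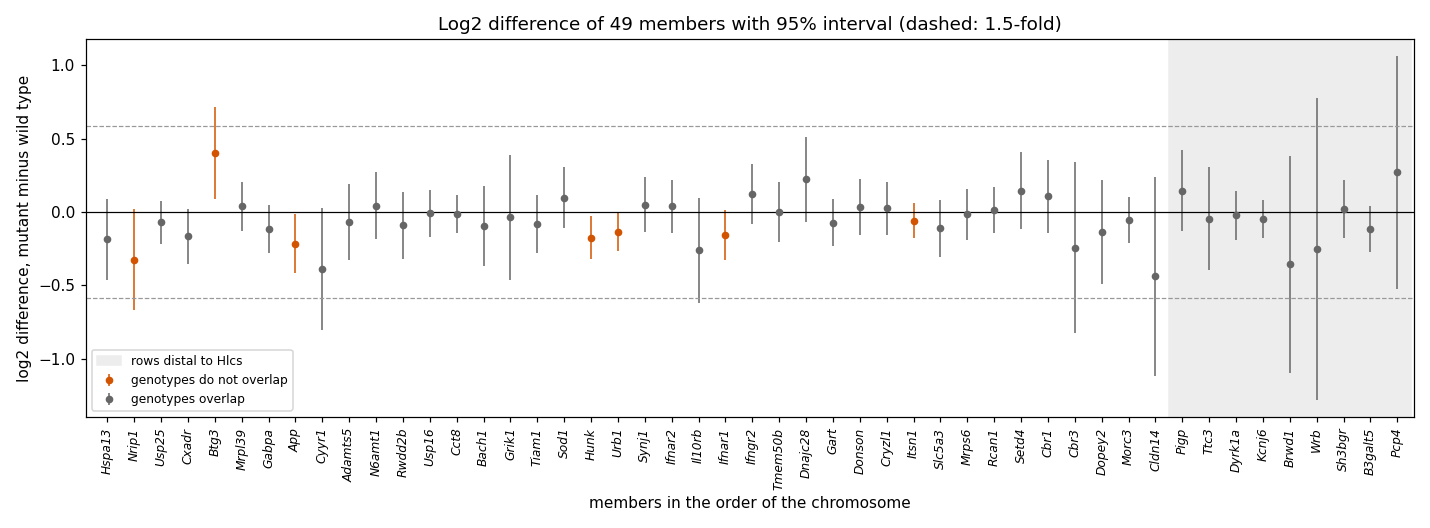
Log2 difference (mutant minus wild type) of each member with its 95% interval from limma, in chromosome order, with the 7 members whose genotypes did not overlap in orange and rows distal to Hlcs shaded. Dashed lines mark 1.5-fold, and most intervals lie between them.

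App, Hunk, Urb1 and Btg3 had the smallest p-values of the members, and Ifnar1 was the cytokine receptor gene with separated genotypes. To show which letters precede these genes, the 250 bases before the most upstream RefSeq start of each are printed (GRCm38.p6, 5′ to 3′ on the strand of the gene). Capitals mark the letters CCGGAAG, the core bound by ETS factors such as GABPA, whose gene Gabpa is itself a member, and GGGCGG, the GC box bound by SP1, each searched on both strands, so that CTTCCGG and CCGCCC are the same motifs on the other strand. No marked motifs overlap.
App (chr16:85173708-85173957, minus strand): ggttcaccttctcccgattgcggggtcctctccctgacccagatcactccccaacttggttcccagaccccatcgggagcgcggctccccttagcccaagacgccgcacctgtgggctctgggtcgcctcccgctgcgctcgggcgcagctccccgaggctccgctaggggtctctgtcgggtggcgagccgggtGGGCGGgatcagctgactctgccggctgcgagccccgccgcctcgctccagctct
Hunk (chr16:90386147-90386396, plus strand): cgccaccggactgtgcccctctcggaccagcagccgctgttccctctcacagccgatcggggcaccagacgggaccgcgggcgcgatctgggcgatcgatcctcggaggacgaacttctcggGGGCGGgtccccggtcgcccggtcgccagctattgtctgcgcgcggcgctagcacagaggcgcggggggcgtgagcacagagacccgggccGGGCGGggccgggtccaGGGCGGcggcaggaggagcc
Urb1 (chr16:90810414-90810663, minus strand): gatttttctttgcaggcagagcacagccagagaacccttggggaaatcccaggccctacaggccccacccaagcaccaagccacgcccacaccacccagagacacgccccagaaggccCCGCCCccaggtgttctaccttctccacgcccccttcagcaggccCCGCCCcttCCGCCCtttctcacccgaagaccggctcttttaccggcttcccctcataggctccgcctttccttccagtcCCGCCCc
Btg3 (chr16:78377182-78377431, minus strand): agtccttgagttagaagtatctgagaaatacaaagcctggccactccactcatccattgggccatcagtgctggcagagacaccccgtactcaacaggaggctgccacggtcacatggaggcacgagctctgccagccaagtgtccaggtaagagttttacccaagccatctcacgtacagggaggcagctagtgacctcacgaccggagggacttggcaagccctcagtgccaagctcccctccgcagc
Ifnar1 (chr16:91484965-91485214, plus strand): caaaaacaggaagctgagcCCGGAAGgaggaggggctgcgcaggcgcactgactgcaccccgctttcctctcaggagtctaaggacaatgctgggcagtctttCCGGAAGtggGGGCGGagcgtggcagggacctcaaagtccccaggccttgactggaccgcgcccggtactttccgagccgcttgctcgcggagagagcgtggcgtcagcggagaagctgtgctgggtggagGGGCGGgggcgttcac
The CCGGAAG core occurred in 7 of the 45 listed genes with a promoter entry (15.6%) and in 7.07% of 27025 genes. Of the 5 sequences shown only Ifnar1 held it, with 2 copies. The other 6 listed genes with the core were Cct8, Donson, Gabpa, Psmg1, Setd4 and Usp16. GC boxes occurred in 24 of the 45 (53.3%) and in 33.0% of all genes. The 27025 genes were not limited to those with a row or matched to the listed genes by level, so no enrichment is read from these shares. The 45 include Hlcs, Hmgn1 and Psmg1, which had no row. The windows of Mrps6 and Slc5a3 overlap, so the same 4 GC boxes are counted for each. Ifnar1 had 2, Hunk 3, Urb1 4 and App 1, and Btg3 had neither motif in this window. A match is a description of the letters and does not show that a factor binds.

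App, the transmembrane protein from which amyloid peptides are cut, had 24000.3, 18925 and 21872 normalized reads in mutants 1, 2 and 3, against 24354, 24172 and 26499.8 in wild types 1, 2 and 3. Its mean was 21599 ± 2549 in mutants and 25009 ± 1294 in wild type (SD, n = 3 each), with a log2 difference of -0.22 ± 0.0885 (standard error; limma adjusted p = 0.441). Mutant 2 was the lowest library, mutant 1 came close to wild type 2, and the genotypes did not overlap. Without mutant 2 the log2 difference of App was -0.13. Hunk, a kinase related to AMPK, had 8583, 8327 and 7917 normalized reads in mutants 1, 2 and 3, against 9157, 8997 and 9875 in wild types 1, 2 and 3. All 3 mutants lay below all 3 wild types, with wild type 3 the highest. The mean of Hunk was 8276 ± 336 in mutants and 9343 ± 468 in wild type (SD, n = 3 each), with a log2 difference of -0.17 ± 0.0652 (standard error; limma adjusted p = 0.43). Urb1, needed for making the large ribosomal subunit in yeast, had 7414, 7005 and 7227 normalized reads in mutants 1, 2 and 3, against 7884, 7805 and 8093 in wild types 1, 2 and 3. The libraries of each genotype were close together in Urb1 and the gap between genotypes was small, with a log2 difference of -0.14 ± 0.0585 (standard error; limma adjusted p = 0.455). Btg3, an antiproliferative gene of the BTG family, lay higher in mutants, with 784, 1005 and 922 normalized reads in mutants 1, 2 and 3, against 715, 758 and 581 in wild types 1, 2 and 3. Mutant 2 was highest and wild type 3 lowest, and the means were 904 ± 112 in mutants and 685 ± 92.5 in wild type (SD, n = 3 each), with a log2 difference of 0.40 ± 0.137 (standard error; limma adjusted p = 0.404). The log2 difference of Btg3 was 0.29 without wild type 3 and 0.50 without mutant 1.

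Nrip1, Ifnar1 and Itsn1 were also separated by genotype, and mutant 2 was the lowest library in each. Nrip1, a corepressor of nuclear receptors, had 7069.8, 4696 and 7241 normalized reads in mutants 1, 2 and 3, against 8071, 7678 and 7662 in wild types 1, 2 and 3. Its log2 difference was -0.33 (limma, adjusted p = 0.47) and -0.12 without mutant 2. Ifnar1, a chain of the type I interferon receptor, had 10402, 8931 and 10605 normalized reads in mutants 1, 2 and 3, against 11186, 10996 and 11072 in wild types 1, 2 and 3. The log2 difference of Ifnar1 was -0.16 (limma, adjusted p = 0.481), and -0.078 without mutant 2. Itsn1, a scaffold of endocytosis, had 24933, 23319.6 and 24723 normalized reads in mutants 1, 2 and 3, against 24995, 25834 and 25197 in wild types 1, 2 and 3, and mutant 1 came close to wild type 1. For Itsn1 the log2 difference was -0.06 (limma, adjusted p = 0.666).

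**Figure D3:**
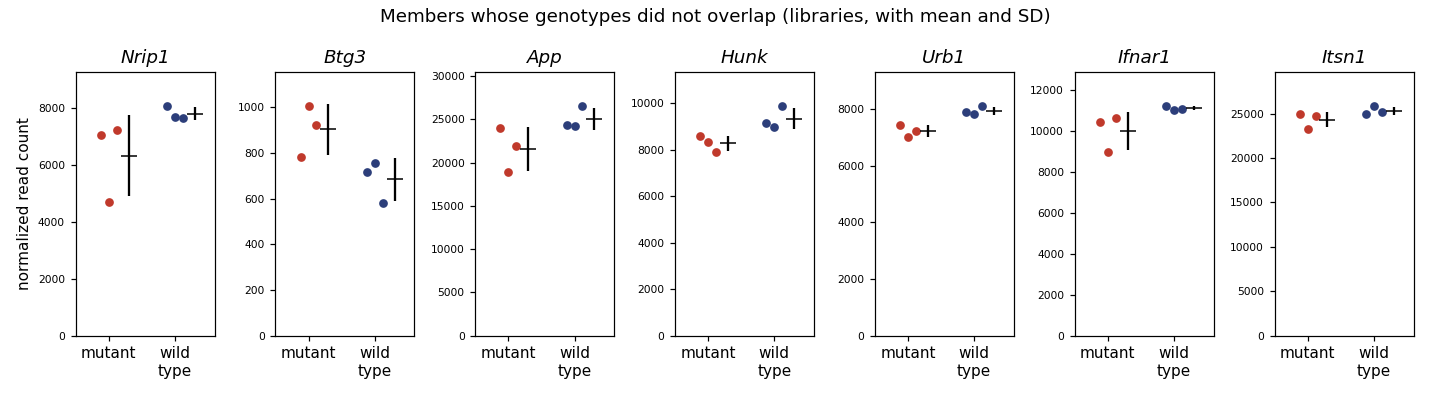
Normalized read count of the 7 members whose genotypes did not overlap, with mutants left of wild type, each point 1 library and the bar the mean and SD of 3. Mutant 2, the middle mutant point, is lowest in Nrip1, App, Urb1, Ifnar1 and Itsn1, and highest in Btg3.

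The interferon and cytokine receptor cluster has 4 listed genes, 4 tested and 0 that passed. Ifnar1 lay below 0 as given above, and Il10rb, a chain shared by several cytokine receptors, had 314, 254 and 233 normalized reads in mutants 1, 2 and 3, against 318, 282 and 359 in wild types 1, 2 and 3, which overlap. The difference for Il10rb on the log2 scale was -0.26 (limma, adjusted p = 0.543). Ifngr2, a chain of the interferon gamma receptor, had 1627, 1399 and 1498 normalized reads in mutants 1, 2 and 3, against 1426, 1316 and 1413 in wild types 1, 2 and 3. Mutant 1 was highest and the others overlapped, with a log2 difference of 0.12 (limma, adjusted p = 0.603). Ifnar2, the other type I interferon receptor chain, had a log2 difference of 0.039, and of -0.014 without mutant 1. By level per kb the chains differed: Ifnar1 had 1773 normalized reads per kb, Ifnar2 560.3, Ifngr2 384 and Il10rb 77.

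The genes of protein folding, ubiquitin and membrane insertion had 8 listed, 7 tested and 0 that passed, with 1 above 0 and 6 below. Cct8, a subunit of the TRiC chaperonin, had 76882, 83427 and 75451 normalized reads in mutants 1, 2 and 3, against 82336, 78367 and 77156 in wild types 1, 2 and 3. Mutants and wild types overlapped in Cct8, and the 95% interval of the log2 difference ran from -0.14 to 0.11. Hspa13, a member of the HSP70 family, had 6249, 4505 and 6149.6 normalized reads in mutants 1, 2 and 3, against 6381, 6414 and 6241 in wild types 1, 2 and 3. Mutant 2 stood alone below 5 libraries that were close together, and the log2 difference of Hspa13 was -0.19 with all libraries and -0.034 without mutant 2. Dnajc28, a DnaJ family gene, was at a log2 difference of 0.22 (limma, adjusted p = 0.535), and the ubiquitin protease genes Usp25 and Usp16 were at -0.07 and -0.0095. The log2 differences of the rows named Ttc3 and Wrb were -0.046 and -0.25.

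Transcription and chromatin genes had 9 listed, 8 tested and 0 that passed, with 3 above 0 and 5 below. Gabpa, an ETS transcription factor of mitochondrial and housekeeping genes, had 13739 ± 1099 in mutants and 14864 ± 396 in wild type (SD, n = 3 each), with a log2 difference of -0.12 (limma, adjusted p = 0.546). Bach1, a repressor regulated by heme, had 11975, 8481 and 11446 normalized reads in mutants 1, 2 and 3, against 11279, 11068 and 11429 in wild types 1, 2 and 3. Here mutant 2 alone was low and the other 5 libraries agreed closely. The log2 difference of Bach1 was -0.10 with all libraries and 0.056 without mutant 2. Setd4, a SET domain methyltransferase gene, had 1208, 1550.5 and 1231 normalized reads in mutants 1, 2 and 3, against 1284, 1171 and 1133 in wild types 1, 2 and 3. As in Sod1 and Btg3, mutant 2 was the highest library, with the other 5 lower. On the log2 scale the difference of Setd4 was 0.15, and 0.03 without mutant 2. That of the methyltransferase gene N6amt1 was 0.042, and that of the nuclear ATPase gene Morc3 was -0.052. The row named Brwd1 had a log2 difference of -0.36, with a mean below that of every proximal member.

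Metabolic, redox and transport genes had 9 listed, 8 tested and 0 that passed, with 4 above 0 and 4 below. Sod1, the cytosolic superoxide dismutase, had 23928, 28627 and 22024 normalized reads in mutants 1, 2 and 3, against 23373, 22694 and 23231 in wild types 1, 2 and 3. Mutant 2 was again apart, here as the highest library. The log2 difference of Sod1 was 0.10 with a 95% interval from -0.11 to 0.30, and -0.0089 without mutant 2. Gart, which carries 3 activities of purine synthesis, had 31723 ± 2296 in mutants and 33365 ± 1937 in wild type (SD, n = 3 each), with a log2 difference of -0.074. Slc5a3, a myo-inositol transporter gene, was at a log2 difference of -0.11, Cbr3 at -0.24 and the quinone oxidoreductase-like gene Cryzl1 at 0.025. The value of Cbr3 was -0.079 without mutant 2 and -0.52 without mutant 3. Cbr1, which reduces carbonyl compounds, had 3411, 4551 and 4012 normalized reads in mutants 1, 2 and 3, against 3923, 3709 and 3433 in wild types 1, 2 and 3. Mutant 2 was highest and mutant 1 among the lowest, so that the genotypes overlapped, with a log2 difference of 0.11. Without mutant 2 that of Cbr1 was 0.0063, and without mutant 1 it was 0.21. The rows named Pigp and B3galt5 had log2 differences of 0.14 and -0.12, with adjusted p-values of 0.644 and 0.537 by limma. The mitochondrial ribosome genes Mrpl39 and Mrps6 had log2 differences of 0.038 and -0.016, and 0 of these 2 passed.

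Among signalling and neuronal genes, Rcan1, which inhibits calcineurin, had 4812, 5187 and 4736 normalized reads in mutants 1, 2 and 3, against 4815, 4696 and 5098 in wild types 1, 2 and 3. The genotypes overlapped almost completely, and the 95% interval of the log2 difference ran from -0.15 to 0.17. The row named Dyrk1a had 63910.1, 54602 and 65027 normalized reads in mutants 1, 2 and 3, against 60303, 61679.5 and 64015 in wild types 1, 2 and 3. Its log2 difference was -0.023, with an interval from -0.19 to 0.14, and 0.057 without mutant 2. Of the kinase, calcineurin and calmodulin group 4 were listed, 4 tested and 0 passed. Synj1, a phosphoinositide phosphatase of vesicle recycling, and Tiam1, an activator of the GTPase Rac, had log2 differences of 0.049 and -0.081, and of the 3 genes of endocytosis and Rac signalling 0 passed. The log2 difference of Grik1 was -0.038 and that of the row named Kcnj6 -0.05. The adhesion receptor gene Cxadr had 12809.6 ± 1357 in mutants and 14321 ± 445 in wild type (SD, n = 3 each), with a log2 difference of -0.17 (limma, adjusted p = 0.485), and of -0.085 without mutant 2. Cldn14 and Adamts5, the other genes of adhesion and matrix, had log2 differences of -0.44 and -0.069, and 0 of these 3 passed. Donson, which protects replication forks, had a log2 difference of 0.036, and of the 2 genes of replication and ribosome making 0 passed. App was the 1 tested gene of amyloid processing. Of the 5 members placed in no role, 4 lay below 0, 1 above and 0 passed. Cyyr1, a membrane protein gene, had 391, 327 and 539 normalized reads in mutants 1, 2 and 3, against 478, 559 and 582 in wild types 1, 2 and 3. Mutants 1 and 2 were the lowest libraries and mutant 3 lay among the wild types, with a log2 difference of -0.39 (limma, adjusted p = 0.473). Without mutant 2 that of Cyyr1 was -0.23, and without mutant 3 it was -0.59. Dopey2, a gene of endosomal transport in yeast, had 1586, 1080.2 and 1612 normalized reads in mutants 1, 2 and 3, against 1429, 1646 and 1560.3 in wild types 1, 2 and 3. Mutant 2 alone was low in Dopey2, and the log2 difference was -0.14 with all libraries and 0.052 without mutant 2. Rwdd2b was at a log2 difference of -0.09, Tmem50b at -0.00067 and the row named Sh3bgr at 0.022.

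Exons of 13 of the 53 listed genes overlap those of another protein-coding gene in GENCODE M21, and the sources used here do not say whether strand was used in counting. Btg3 and Cxadr overlap by 695 bases on opposite strands, and if strand was not used, reads of the 2 genes cannot be told apart there. Cxadr had 13565 normalized reads and Btg3 794, and their log2 differences had opposite signs. Usp16 and Cct8 overlap by 192 bases on opposite strands, and Gabpa overlaps Atp5j by 397. Mrps6 and Slc5a3 share 159 bases on the same strand. Donson shares 103 bases with Son, 1 of the rows with the most reads on the chromosome at 66307 ± 3019 normalized reads (SD, n = 6), and 287 with Atp5o. Ifnar2 and Il10rb share 315 and 569 bases with a joined gene model, Pigp and Ttc3 share 326, and Pcp4 shares 243 with Igsf5. In 0 of the 49 rows were all 6 read counts identical to those of another row.

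Mutant 2 was the library that stood apart, both at these genes and over all rows. It was the lowest of the 6 libraries in 23 of 49 members, against 30.5% of all rows, and the highest in 12 of 49, against 27.9% of all rows. Together this is 71.4% of members against 58.4% of all rows. Each of the other 5 libraries was lowest or highest in between 22.4% and 28.6% of members, and in between 23.7% and 34.8% of all rows. The 18 members proximal to Hlcs that were lowest in mutant 2, such as Nrip1, App, Bach1 and Dopey2, had a median exon length of 7795 bases, and the 10 that were highest, such as Sod1, Cbr1, Mrpl39 and Btg3, of 3550 bases. Over all 40 proximal members the median was 5404.5 bases. Across the 40 proximal members, Spearman's rho between exon length and the deviation from the row mean was -0.47 in mutant 2, 0.05 in mutant 3 and 0.24 in mutant 1. It was 0.12 in wild type 1, 0.56 in wild type 2 and 0.23 in wild type 3. These are descriptions across genes that share each library, and the deviations of the 6 libraries sum to 0 in each gene. The part of exon length in the comparison of genotypes was not tested. Without mutant 2 the median log2 difference of the 49 members was -0.031.

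**Figure D4:**
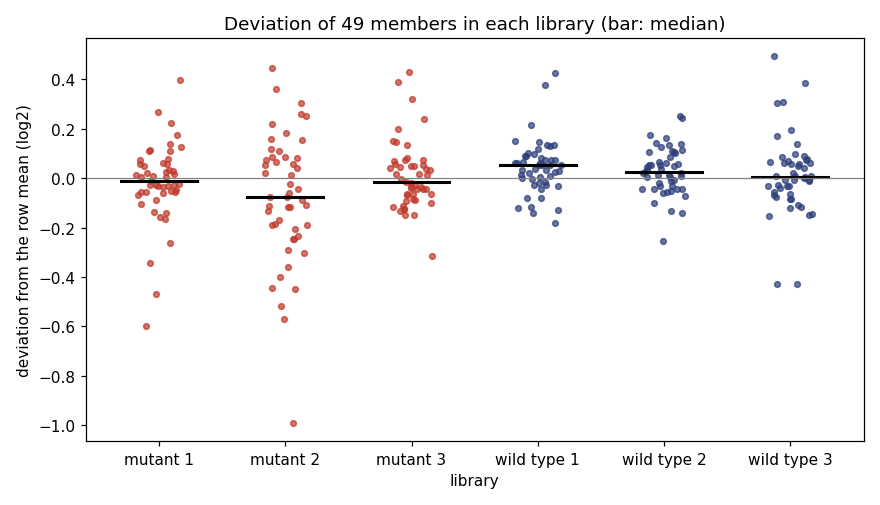
Deviation of each of the 49 members from its row mean (log2) in each library, with mutants left of wild type and a bar at the median. The median was -0.078 in mutant 2, -0.014 in mutant 1 and -0.016 in mutant 3, and it was above 0 in the 3 wild-type libraries.

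**Figure D5:**
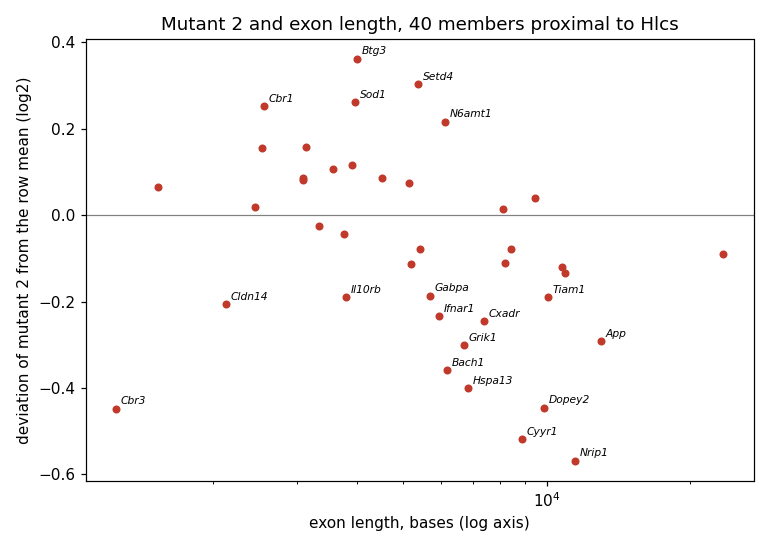
Deviation of mutant 2 from the row mean (log2) against exon length in bases (log axis) for the 40 members proximal to Hlcs, each point 1 gene. Nrip1 and Dopey2, with long exon totals, lie below 0, and Sod1 and Cbr1, with shorter totals, above 0. The points scatter widely (rho = -0.47), and several genes, such as Cbr3, Cldn14 and N6amt1, lie on the other side. Wild type 2, not shown here, had a rho of 0.56.

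Other orthologues of human chromosome 21 on mouse chromosome 16, which are not members, were counted in the same way. Of 48 listed symbols (older and newer names of some genes both counted), 33 had a row and 28 were tested. Rows distal to Hlcs, such as Erg, Dscam and Igsf5, are counted by row name, with the limit given above. Of these 0 passed, 2 had an unadjusted p below 0.05 (7.14%, against 10.8% of all rows), both higher in mutants, 19 lay above 0 (48.9% of all rows did) and 9 below, and the median log2 difference was 0.08. The 2 were Gcfc1, now named Paxbp1, with 14585, 16107 and 14601 normalized reads in mutants 1, 2 and 3, against 13067, 13635 and 11449 in wild types 1, 2 and 3, and Eva1c, with 37.3, 37.5 and 28.8 normalized reads in mutants 1, 2 and 3, against 12.4, 14.5 and 32.6 in wild types 1, 2 and 3. In Gcfc1 the genotypes did not overlap, and in Eva1c, with few reads, they did.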

How the data were processed

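RNA was sequenced from 3 mutant and 3 wild-type embryos. An Illumina TruSeq RNA kit was used, per the labels. CASAVA 1.7, bedtools and mm9 are listed, without roles, per the submitters' processing notes, and no counting rule, use of strand or annotation was given in the sources used here. The deposited table gives the authors' normalized signal for each row in each library, and its values were whole multiples of 1 step per library, so that 100% of them gave whole reads within 0.001 reads. A further 12 columns with side calculations were not used. The members and lists were chosen with earlier results of these data known. The test was limma 3.58.1 (R 4.3.3, with a mean-variance trend, two-sided) on log2(value + 1) of rows with a mean of at least 10, mutant minus wild type, with Benjamini-Hochberg adjustment over 13329 rows. That scale understates changes of low rows. All 49 members with a row passed this filter, which uses the mean of all 6 libraries. As alternatives, the recovered reads went to edgeR 4.0.16 (quasi-likelihood test) and DESeq2 1.42.0. The steps were tested on simulated data. The named members were those with an unadjusted p below 0.05, up to 3 of smallest p per role, the 5 with most and the 5 with fewest reads, App, Sod1, Dyrk1a and Rcan1, and members with overlapping exons (41 in all). Members outside this rule were given after their values were seen. Exon lengths and overlaps came from GENCODE M21 on GRCm38, and current names and gene order from RefSeq on GRCm38. That is not the build of the files, so positions were not matched to those of the files. Promoters came from RefSeq on GRCm38.p6. Python 3.11.15, pandas 2.3.3, numpy 2.4.6 and matplotlib 3.10.9 were used.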

Additional observations from a re-analysis of the deposited data

How the results depend on the processing

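The count of members called was 0 in every alternative run: 2 other normalizations (quantile and equal medians), pseudocounts of 5 and 0.1, filters on low rows of none and 50, limma without a trend, array quality weights, edgeR, DESeq2, a replicate block, a threshold of 0.1, each library left out, and the 40 proximal members alone, the last added after seeing the data. The count at an unadjusted p below 0.05 was 4 as planned (10.8% of all rows), 2 with quantile normalization (11.1%), 2 with equal medians (10.6%), 1 without a mean-variance trend (9.88%), 7 with array quality weights (16%) and 2 with DESeq2 (10.4%). It ran from 0 (without wild type 3, 6.40% of all rows) to 7 (without mutant 3, 16.2%) when single libraries were left out; the cause was not tested. The genotypes did not overlap in 7 members, and in 12 to 18 when a library was left out, which fewer libraries make easier by construction: over all rows it was 26.5% to 35.8%. The median log2 difference of members moved by less than the spread between libraries in each alternative, from -0.069 (without mutant 3) to -0.031 (without mutant 2) among single libraries left out. No pairing of samples by replicate number was seen: correlations of deviations were -0.045, -0.00025 and 0.059 at equal numbers, and -0.065 to 0.055 at unequal numbers. Pairing by litter could not be tested, since litter is not given. With the replicate block the count at an unadjusted p below 0.05 was again 4, with App and Btg3 shared and Cyyr1 and Nrip1 in place of Hunk and Urb1. Signs turned for 19 of 49 members, none of which passed under any alternative. With equal medians the log2 difference was 0.0032 for Cct8, 0.0009 for Mrps6, 0.0161 for Tmem50b and 0.0073 for Usp16, and with array quality weights 0.0302 for Bach1, -0.011 for Donson, 0.0207 for Dyrk1a, 0.1993 for Grik1, 0.0035 for Mrps6, -0.0518 for N6amt1, -0.0184 for Rcan1, -0.0168 for Sh3bgr and 0.0272 for Tiam1. Tmem50b was at 0.0056 with quantile normalization, 0.0036 by edgeR and 0.0008 by DESeq2. With single libraries left out the log2 difference ran from -0.1923 to 0.0565 for Bach1, -0.0574 to 0.0151 for Cct8, -0.0118 to 0.0938 for Cryzl1, -0.0341 to 0.0788 for Donson, -0.2363 to 0.0524 for Dopey2, -0.0693 to 0.0567 for Dyrk1a, -0.2443 to 0.1037 for Grik1, -0.0144 to 0.0704 for Ifnar2, -0.0308 to 0.0818 for Mrpl39, -0.063 to 0.0365 for Mrps6, -0.0553 to 0.1216 for N6amt1, -0.0279 to 0.0455 for Rcan1, -0.0626 to 0.0775 for Sh3bgr, -0.0089 to 0.1803 for Sod1, -0.0714 to 0.0432 for Tmem50b, -0.2181 to 0.0658 for Ttc3, -0.0464 to 0.0325 for Usp16 and -0.5092 to 0.1794 for Wrb. No direction is read for these 19 members. The 95% interval reached past a change of 1.5-fold in 9 members, with mean levels from 11.6 (Wrb) to 7069.5 (Nrip1) normalized reads.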
